A study of Mus musculus with 4 samples.

Results

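The 32 genes described here encode the chaperones of the endoplasmic reticulum (ER) and the proteins of the unfolded protein response, out of 24422 named genes in the data. They are known genes of this response, chosen with earlier results of these data known. For each gene the RefSeq transcript with the highest mean raw count was kept. Polyadenylated transcripts were sequenced from the mouse macrophage line RAW 264.7, in cells stably carrying the long noncoding RNA Dnm3os in the plasmid pcDNA 3.1(+) (2 libraries) and from cells stably carrying the plasmid alone (2 libraries). Both groups were grown in medium with 5.5 mmol/L glucose and were at passages 3 to 6, and no label tells if a group's libraries are separate cultures, or 1 clone or several. The comparison asks how this pathway differs between Dnm3os cells and empty vector cells.

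All 32 genes passed the filter on low counts, with between 506 and 102315 counts in each library. The libraries held 29329201 and 34207328 counts in Dnm3os libraries 1 and 2, against 39640782 and 35328398 in empty vector libraries 1 and 2, with 1 transcript per gene. Dnm3os itself had 208 and 260 counts in its libraries, against 0 and 0 in the empty vector libraries. The 10 macrophage markers summed to 11480 and 10996 CPM (counts scaled to library size) in the Dnm3os libraries, against 10237 and 10091 CPM in the empty vector libraries. Markers of fibroblasts and epithelium summed to at most 0.0755 CPM in any library, and among them Col1a2, Col3a1, Epcam and Cdh1 had 0 counts in all 4. The T cell markers, with Cd3e and Cd3g at 0, summed to 5.45 and 5.62 CPM in the Dnm3os libraries, against 6.59 and 7.21 CPM in the empty vector libraries. Endothelial markers summed to 1.02 and 0.907 CPM in the Dnm3os libraries, against 0.327 and 0.454 CPM in the empty vector libraries. The 5 plasma cell markers, led by Sdc1, summed to 13.6 and 14.4 CPM in the Dnm3os libraries, against 25.5 and 24.4 CPM in the empty vector libraries, and their part in the results was not tested.

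The unfolded protein response senses misfolded protein in the ER through 3 membrane proteins. IRE1 (Ern1) splices the mRNA of the transcription factor XBP1, ATF6 is cut by Golgi proteases to free a transcription factor, and PERK (Eif2ak3) phosphorylates eIF2 alpha, which slows translation while the mRNA of ATF4 is translated. ATF6 and XBP1 act on genes of chaperones and of ER-associated degradation (ERAD), the disposal of misfolded protein through the proteasome. ATF4 acts on genes of amino acid supply and, through CHOP (Ddit3), on genes linked to cell death, and other stresses such as amino acid shortage also feed into it. Secretory cells, including macrophages making cytokines, rely on this system.

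In Dnm3os cells 16 of the 32 genes were higher and 1 was lower, and 15 did not pass the threshold (two-sided quasi-likelihood test of edgeR, with p-values adjusted over 13136 genes by Benjamini-Hochberg and a threshold of 0.05). Of all genes tested, 6.48% were higher and 5.77% lower, 12.2% in all. Among the members the share of higher genes was 50.0% and that of lower genes 3.125%. Because the members were chosen with earlier results of these data known, these shares are a description and no test. The differences were small. The median log2 fold change of the members was 0.13, against 0.00 for all genes tested, and 0 members reached 1.5-fold. DESeq2 called 12 members higher, where it called 3.03% of all genes higher. Without Dnm3os library 2 the count was 7 members, where 3.25% of all genes were higher. The values of both Dnm3os libraries lay above both empty vector libraries for 26 members, as they did for 26.2% of all genes, and below them for 4 members, against 25% of all genes. In these bulk libraries a lower level per cell and fewer cells expressing a gene cannot be told apart. The spread behind the p-values is that between these 4 libraries, and it may be technical.

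**Figure D1:**
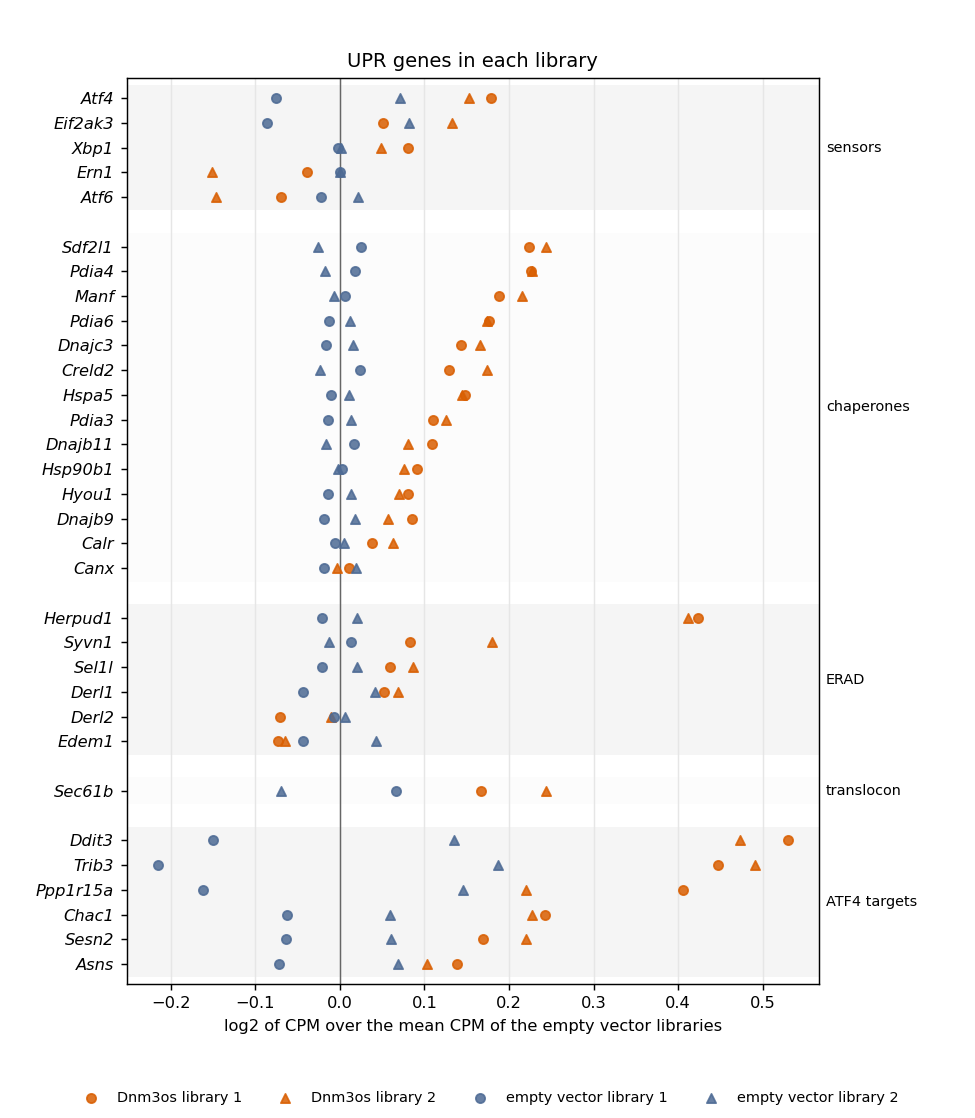
Log2 of each library's CPM over the mean CPM of the empty vector libraries (x axis) for the 32 genes (y axis), grouped by role, with Dnm3os libraries in orange and empty vector libraries in blue (circles library 1, triangles library 2). The chaperone genes have tight libraries within each group, while all 6 ATF4 targets have empty vector library 1 below empty vector library 2.

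Of the 14 listed chaperones, folding enzymes and co-chaperones, 9 rose (64.3%, against 6.48% of all genes), 0 fell and 5 did not pass. Their median log2 fold change was 0.13, with a range from 0.00 to 0.23. At an unadjusted p under 0.05 edgeR had 0 lower, while DESeq2 and limma-voom at their threshold also called 0 lower. Their summed level was 13245 and 13258 CPM in the Dnm3os libraries, against 12259 and 12361 CPM in the empty vector libraries. Without Dnm3os library 2, 5 of them were called, namely Hspa5, Pdia4, Pdia6, Sdf2l1 and Manf.

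Hspa5 encodes BiP, the HSP70 chaperone of the ER lumen, which also holds the 3 sensors inactive. It had 2874 and 2867 CPM in the Dnm3os libraries, against 2574 and 2613 CPM in the empty vector libraries. Both Dnm3os values lay above both empty vector values, a rise of 10.7% (log2 fold change 0.15 ± 0.02, SE; adjusted p = 1.09e-05 by edgeR). Per length, Hspa5 was the most abundant of the 32 transcripts, at 1099 CPM per kb in Dnm3os cells and 992 CPM per kb in empty vector cells.

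Hsp90b1, the HSP90 of the ER (GRP94), had 2643 and 2615 CPM in the Dnm3os libraries, against 2484 and 2477 CPM in the empty vector libraries, and the groups did not overlap. It rose by 5.99% (0.08 ± 0.02, SE; adjusted p = 0.00611 by edgeR), a call lost by DESeq2 and without either Dnm3os library. Hyou1, a large HSP70 relative that exchanges the nucleotide of BiP, had 739 and 734 CPM in the Dnm3os libraries, against 692 and 705 CPM in the empty vector libraries. The Hyou1 groups did not overlap, but it did not pass by edgeR (0.08 ± 0.03, SE; adjusted p = 0.0662) and was called by limma-voom alone among the alternatives.

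Calreticulin (Calr) and calnexin (Canx), the lectin chaperones that hold newly made glycoproteins, did not pass. Calr had 1905 and 1939 CPM in the Dnm3os libraries, against 1848 and 1862 CPM in the empty vector libraries, with a 95% interval of the log2 fold change from 0.01 to 0.10. Canx had 1044 and 1034 CPM in the Dnm3os libraries, against 1023 and 1050 CPM in the empty vector libraries, and its groups overlapped. The interval of Canx ran from -0.05 to 0.05, so its upper bound lay below the estimate for Hspa5.

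The 3 protein disulfide isomerases among the members, enzymes that form and rearrange disulfide bonds, rose. Pdia4 (ERp72) had 382 and 382 CPM in the Dnm3os libraries, against 330 and 322 CPM in the empty vector libraries (17.0% higher, adjusted p = 9.17e-06 by edgeR). Pdia6 (P5) had 806 and 805 CPM in the Dnm3os libraries, against 707 and 720 CPM in the empty vector libraries (12.9% higher, adjusted p = 3.69e-05 by edgeR). Pdia3 (ERp57), which works with the lectin chaperones on glycoproteins, had 1607 and 1624 CPM in the Dnm3os libraries, against 1475 and 1503 CPM in the empty vector libraries (8.51% higher, adjusted p = 0.000761 by edgeR). In each of these genes the Dnm3os libraries lay above the empty vector libraries, as they did for 26.2% of all genes tested. Pdia3 lost its call without Dnm3os library 2, with an adjusted p of 0.0579 by edgeR.

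Among the J-domain proteins, which hand unfolded substrates to BiP, 1 of 3 passed. Dnajc3 (p58IPK), also an inhibitor of PERK, had 216 and 220 CPM in the Dnm3os libraries, against 194 and 198 CPM in the empty vector libraries, and rose by 11.3% (adjusted p = 0.00143 by edgeR). Dnajb11 (ERdj3) had 268 and 263 CPM in the Dnm3os libraries, against 251 and 245 CPM in the empty vector libraries, just outside the threshold (0.09 ± 0.03, SE; adjusted p = 0.0507 by edgeR). Dnajb9 (ERdj4) had 19.6 and 19.3 CPM in the Dnm3os libraries, against 18.3 and 18.7 CPM in the empty vector libraries (adjusted p = 0.611 by edgeR). With about 19 CPM its interval was wide, from -0.07 to 0.21, and holds the rise measured for Dnajc3.

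Small ER proteins of the stress response also rose. Sdf2l1, a partner of ERdj3, had 195 and 198 CPM in the Dnm3os libraries, against 170 and 164 CPM in the empty vector libraries (17.6% higher, adjusted p = 1.21e-05 by edgeR). Manf, a secreted ER protein that binds BiP, had 326 and 332 CPM in the Dnm3os libraries, against 287 and 284 CPM in the empty vector libraries (15.1% higher, adjusted p = 4.69e-05 by edgeR). Creld2, an ER protein with isomerase activity, had 220 and 227 CPM in the Dnm3os libraries, against 205 and 198 CPM in the empty vector libraries (11.1% higher, adjusted p = 0.00227 by edgeR). The groups overlapped in 0 of these 3 genes, and in each the Dnm3os libraries lay above, as they did for 26.2% of all genes tested. Of the 3, Creld2 alone lost its call without Dnm3os library 2, as Dnajc3 also did.

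Many of the chaperone genes carry the ER stress response element (ERSE), the DNA sequence at which ATF6 with NF-Y, and XBP1, act. The sites are shown because they are a feature that the list of genes did not use. The ERSE was searched as CCAAT, then any 9 bases, then CCACG, and ERSE-II as ATTGG, then any base, then CCACG, on both strands of the RefSeq promoter windows (build GRCm38.p6, 250 bases before to 50 after the gene start). Windows were at hand for 28 members, and not for Hyou1, Atf6, Derl1 and Manf. An exact ERSE was found in 8 of the 28 genes (28.6%) and in 39 of all 32851 windows (0.119%). ERSE-II was found in 2 of the 28 genes (7.14%) and in 12 of all windows (0.0365%). The members are known genes of this response, so these shares are a description and no test. The matched sites follow, read 5′ to 3′ on the strand of the motif, with the fixed letters in capitals.
Hspa5 (chr2:34772025-34772043): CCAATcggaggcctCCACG
Hsp90b1, upstream site (chr10:86705638-86705656): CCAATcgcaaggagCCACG
Hsp90b1, downstream site (chr10:86705533-86705551): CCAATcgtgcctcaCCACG
Pdia6 (chr12:17266491-17266509): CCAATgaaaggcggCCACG
Dnajc3 (chr14:118937827-118937845): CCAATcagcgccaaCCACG
Creld2 (chr15:88819520-88819538): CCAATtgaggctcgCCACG
Syvn1 (chr19:6046532-6046550): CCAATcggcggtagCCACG
Calr (chr8:84847075-84847093): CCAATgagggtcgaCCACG
Canx (chr11:50325800-50325818): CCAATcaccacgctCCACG
Herpud1, ERSE-II (chr8:94386377-94386387): ATTGGgCCACG
Dnajb11, ERSE-II (chr16:22857852-22857862): ATTGGcCCACG

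**Figure D2:**
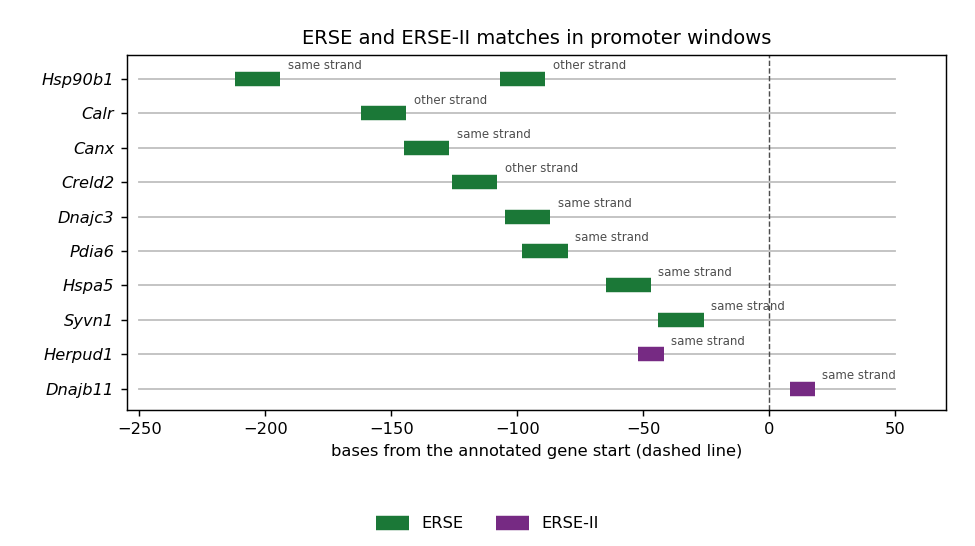
Position of each exact ERSE (green) and ERSE-II (purple) match in the promoter windows of 10 genes, in bases from the annotated gene start (x axis, dashed line at the start), with the strand of the match relative to the gene. The matches lie between -212 and -26 bases from the start, except that of Dnajb11, which begins 8 bases inside the transcript.

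Of the 10 genes with either element, 7 rose and 3 (Calr, Canx and Dnajb11) did not pass, with a median log2 fold change of 0.14. Of the 18 members whose windows held neither, 8 rose and 10 did not pass, also with a median of 0.14. Over all genes tested, 6.48% were higher and 5.77% lower. The XBP1 site TGACGTGG (UPRE), which includes CCACG on its other strand, and the ATF4 site TGATGNAAT (CARE) matched 0 member windows, against 0.676% and 0.965% of all windows. These letters were looked for as exact matches and only within 300 bases, so the 0 does not show that the windows lack variants of these sites. The Asns window holds tgatgaaac, which departs from the CARE only in its last base. The same holds, read on the other strand, for gttgcatca in the Chac1 and Herpud1 windows and tttacatca in the Trib3 window. How many of all windows hold such variants was not counted. The window of Hspa5 (chr2:34771840-34772139, plus strand), with its exact ERSE in capitals 65 bases before the start, reads as follows.
Hspa5 promoter: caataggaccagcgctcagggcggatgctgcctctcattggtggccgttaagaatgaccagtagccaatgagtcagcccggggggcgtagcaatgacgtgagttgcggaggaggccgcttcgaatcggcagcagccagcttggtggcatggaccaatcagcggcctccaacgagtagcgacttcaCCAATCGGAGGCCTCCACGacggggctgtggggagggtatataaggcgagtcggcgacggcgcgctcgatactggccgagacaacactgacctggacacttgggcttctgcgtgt

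ERAD genes split, with the largest rise in Herpud1. Of 6 genes, 2 rose (33.3%, against 6.48% of all genes), 0 fell and 4 did not pass, with a median log2 fold change of 0.07. Unadjusted, edgeR had 1 lower (Edem1) at p under 0.05, and DESeq2 and limma-voom at their threshold called 0 lower. Herpud1 encodes a small ER membrane protein that helps to assemble the degradation complex around the ubiquitin ligase HRD1. It had 138 and 137 CPM in the Dnm3os libraries, against 102 and 105 CPM in the empty vector libraries. The groups lay far apart relative to the spread within each, a rise of 33.6% (0.42 ± 0.03, SE; adjusted p = 3.17e-09 by edgeR), and the log2 fold change stayed between 0.39 and 0.44 in the 14 alternatives. Its window (chr8:94386179-94386478, plus strand) holds ERSE-II, in capitals, 52 bases before the start.
Herpud1 promoter: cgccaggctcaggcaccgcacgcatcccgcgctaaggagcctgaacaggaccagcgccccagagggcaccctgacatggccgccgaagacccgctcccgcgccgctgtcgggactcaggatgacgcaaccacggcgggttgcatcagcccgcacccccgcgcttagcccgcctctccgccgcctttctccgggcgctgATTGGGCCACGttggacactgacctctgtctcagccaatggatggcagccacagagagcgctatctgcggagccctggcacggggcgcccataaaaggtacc

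The HRD1 ligase itself, Syvn1, had 99.4 and 106 CPM in the Dnm3os libraries, against 94.7 and 93.1 CPM in the empty vector libraries. The groups did not overlap and Syvn1 rose by 9.68% (0.13 ± 0.04, SE; adjusted p = 0.0240 by edgeR), a call lost by DESeq2, with isoforms summed, and without Dnm3os library 2 or empty vector library 2. Sel1l, the adaptor of HRD1, had 208 and 212 CPM in the Dnm3os libraries, against 197 and 203 CPM in the empty vector libraries (adjusted p = 0.160 by edgeR). Derl1 and Derl2, the derlins of the channel through which substrates leave the ER, also did not pass. Derl1 had 201 and 204 CPM in the Dnm3os libraries, against 189 and 200 CPM in the empty vector libraries. Derl2 had 56.6 and 59.0 CPM in the Dnm3os libraries, against 59.1 and 59.7 CPM in the empty vector libraries, with an interval from -0.13 to 0.05.

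Edem1, the lectin that removes mannose-trimmed glycoproteins from the folding cycle, pointed the other way. It had 501 and 504 CPM in the Dnm3os libraries, against 511 and 542 CPM in the empty vector libraries, so the groups did not overlap. It did not pass the threshold (-0.07 ± 0.03, SE; adjusted p = 0.177 by edgeR), and was called lower in 1 of its 14 alternatives, that without empty vector library 1 (-0.12; adjusted p = 0.0400). Sec61b, a subunit of the channel through which new proteins enter the ER, had 102 and 108 CPM in the Dnm3os libraries, against 95.4 and 86.8 CPM in the empty vector libraries. Sec61b rose by 15.3% (0.21 ± 0.04, SE; adjusted p = 0.00405 by edgeR) and lost this call without Dnm3os library 2 (0.17; adjusted p = 0.125 by edgeR).

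The mRNAs of the sensors and their transcription factors went both ways. Of 5 genes, Atf4 rose, Atf6 fell and 3 did not pass, with a median log2 fold change of 0.06. Over all genes tested, 6.48% were higher and 5.77% lower. Atf6 had 197 and 187 CPM in the Dnm3os libraries, against 204 and 210 CPM in the empty vector libraries. Both Dnm3os values lay below both empty vector values, and Atf6 fell by 7.19% in Dnm3os cells (-0.11 ± 0.03, SE; adjusted p = 0.0379 by edgeR). The call was lost in 5 of the 14 alternatives, among them DESeq2, summed isoforms, and the fits without Dnm3os library 2 or empty vector library 2.

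Ern1 had 25.3 and 23.4 CPM in the Dnm3os libraries, against 25.99 and 25.98 CPM in the empty vector libraries (-0.10 ± 0.06, SE; adjusted p = 0.420 by edgeR). Eif2ak3 had 31.5 and 33.3 CPM in the Dnm3os libraries, against 28.6 and 32.2 CPM in the empty vector libraries (0.10 ± 0.06, SE; adjusted p = 0.419 by edgeR). These estimates pointed in opposite directions, the Eif2ak3 groups overlapped, and the intervals of both genes include 0. Xbp1 had 187 and 183 CPM in the Dnm3os libraries, against 177 and 177 CPM in the empty vector libraries. The Xbp1 groups did not overlap, but the difference of 4.59% did not pass (adjusted p = 0.218 by edgeR), and its interval reached from -0.00 to 0.13. The RefSeq transcripts of Xbp1 share nearly all their reads, with 6261 and 6135 counts on average, so these counts do not show how much of the mRNA was spliced by IRE1. The activity of the sensors depends on splicing, cleavage and phosphorylation, which mRNA levels do not measure.

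**Figure D3:**
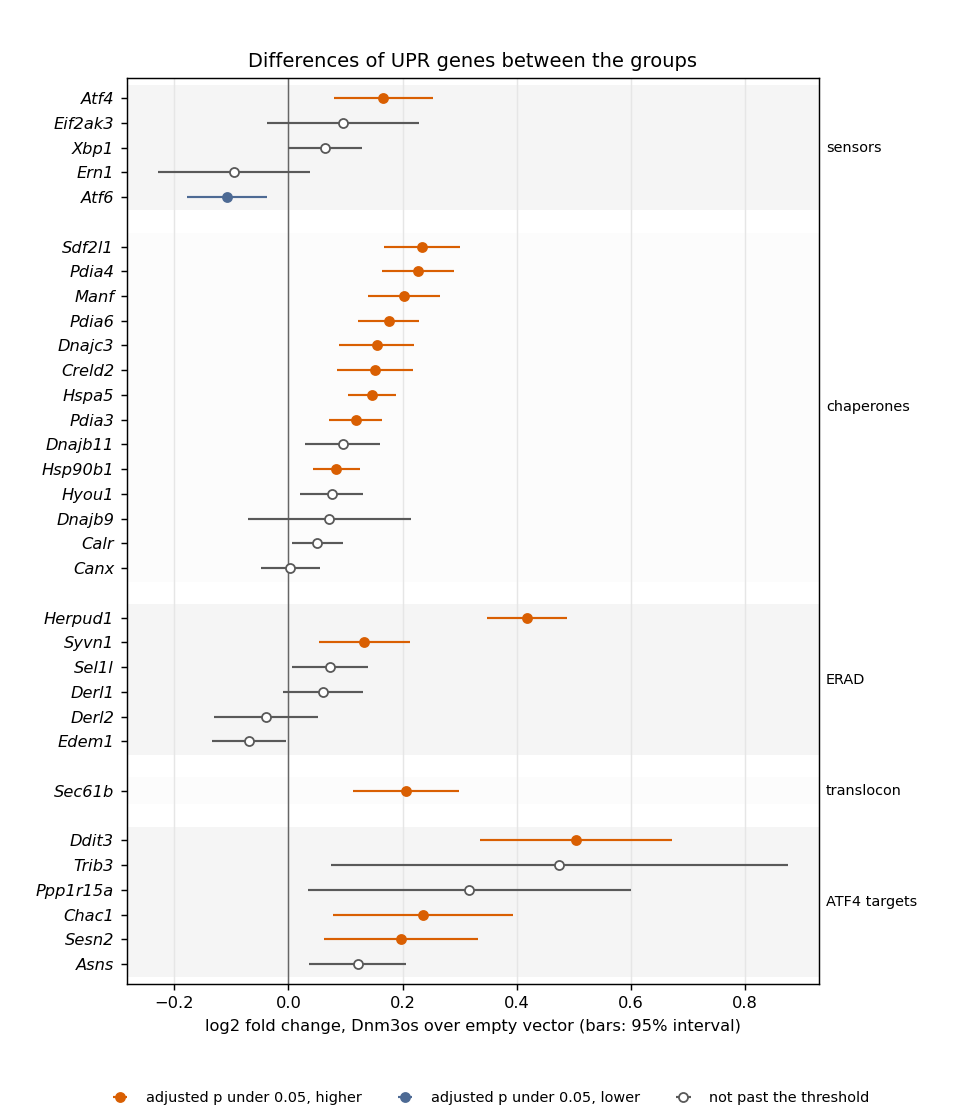
Log2 fold change of Dnm3os over empty vector cells (x axis) with its 95% interval for the 32 genes by role (y axis), orange where higher and blue where lower at an adjusted p under 0.05, and open where the threshold was not passed. Herpud1 (0.42) and Ddit3 (0.50) had the largest called rises, and Atf6 (-0.11) the fall.

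Atf4 and 3 of its 6 listed target genes rose in Dnm3os cells, and here the empty vector libraries differed from each other. Atf4 had 372 and 366 CPM in the Dnm3os libraries, against 312 and 346 CPM in the empty vector libraries, and rose by 12.2% (0.17 ± 0.04, SE; adjusted p = 0.0139 by edgeR). The estimate was 0.24 with empty vector library 2 left out and 0.09 with library 1 left out (adjusted p = 0.212 by edgeR), and the call was also lost without either Dnm3os library. Of the 6 target genes 3 rose (50%, against 6.48% of all genes), 0 fell and 3 did not pass. Their median log2 fold change was 0.28. At an unadjusted p under 0.05 edgeR had 0 lower, while DESeq2 and limma-voom at their threshold called 0 lower. In all 6 targets both Dnm3os libraries lay above both empty vector libraries, as they did for 26.2% of all genes tested. All 6 also had empty vector library 1 below library 2, so they are not 6 separate observations.

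Ddit3 encodes CHOP, the transcription factor linked to death under lasting ER stress. It had 30.0 and 28.8 CPM in the Dnm3os libraries, against 18.7 and 22.8 CPM in the empty vector libraries. The empty vector libraries stood apart, yet the call held in all 14 alternatives (1.42-fold; 0.50 ± 0.08, SE; adjusted p = 0.000275 by edgeR), with the log2 fold change between 0.36 and 0.65. Trib3, a pseudokinase that CHOP and ATF4 induce, had 33.2 and 34.2 CPM in the Dnm3os libraries, against 21.0 and 27.7 CPM in the empty vector libraries. Its estimate was close to that of Ddit3, but it did not pass (0.47 ± 0.15, SE; adjusted p = 0.155 by edgeR). The estimate for Trib3 was 0.28 without empty vector library 1 and 0.68 without library 2. With either left out, the difference between the empty vector libraries no longer enters the test.

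Chac1, which degrades glutathione, had 17.2 and 17.1 CPM in the Dnm3os libraries, against 14.0 and 15.2 CPM in the empty vector libraries (17.8% higher, adjusted p = 0.0438 by edgeR). Sesn2, a stress sensor that restrains mTORC1, had 26.8 and 27.7 CPM in the Dnm3os libraries, against 22.8 and 24.8 CPM in the empty vector libraries (14.6% higher, adjusted p = 0.0486 by edgeR). Both lay close to the threshold, and the call of Chac1 held in 9 of the 14 alternatives and that of Sesn2 in 5. Both calls were lost with either Dnm3os library or empty vector library 1 left out, where the estimates were 0.17 to 0.24 for Chac1 and 0.13 to 0.22 for Sesn2. Asns, the asparagine synthetase, had 276 and 269 CPM in the Dnm3os libraries, against 238 and 263 CPM in the empty vector libraries (adjusted p = 0.0604 by edgeR). Ppp1r15a (GADD34), the phosphatase subunit that reverses the phosphorylation of eIF2 alpha, had 35.5 and 31.2 CPM in the Dnm3os libraries, against 23.9 and 29.6 CPM in the empty vector libraries (0.32 ± 0.12, SE; adjusted p = 0.167 by edgeR). Asns and Ppp1r15a did not pass, and in both genes empty vector library 2 lay nearer to Dnm3os library 2 than to empty vector library 1. The estimate for Asns was 0.05 with empty vector library 1 left out and 0.19 with library 2 left out. That for Ppp1r15a was 0.16 with empty vector library 1 left out and 0.47 with library 2 left out.

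The empty vector libraries differed from each other in the ATF4 targets. Empty vector library 2 was above library 1 in 6 of the 6 targets, with a median log2 difference of 0.21, and in 8 of the 14 chaperones, with a median of 0.02. Over all genes tested it was above in 50.3%, with a median of 0.00. Among the 33 tested genes of a further list of ATF4 and CHOP targets it was above in 30, with a median of 0.09. Between the Dnm3os libraries, library 2 was above library 1 in 2 of the 6 targets, with a median of -0.03. Leaving out empty vector library 2, the log2 fold changes of the 6 targets ran from 0.19 (Asns) to 0.68 (Trib3). Leaving out empty vector library 1, they ran from 0.05 (Asns) to 0.36 (Ddit3). Fits with 1 empty vector library leave out the spread between the 2. The part of this library difference in the result beyond those values was not tested.

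The levels of the 32 transcripts spanned a wide range, compared here as CPM per kb of transcript. After Hspa5 came Hsp90b1, at 931 CPM per kb in Dnm3os cells and 878 CPM per kb in empty vector cells, and Calr, at 880 CPM per kb in Dnm3os cells and 849 CPM per kb in empty vector cells. Pdia3 and Pdia6 followed with 583 and 370 CPM per kb in Dnm3os cells, against 537 and 328 CPM per kb in empty vector cells. The 3 sensors were low, with Ern1 lowest of all at 3.51 CPM per kb in Dnm3os cells and 3.74 CPM per kb in empty vector cells. Eif2ak3 had 7.18 CPM per kb in Dnm3os cells and 6.74 CPM per kb in empty vector cells, and Atf6 had 26.5 CPM per kb in Dnm3os cells and 28.6 CPM per kb in empty vector cells. Together the 32 genes took 1.58% of the counts in Dnm3os cells and 1.47% in empty vector cells.

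**Figure D4:**
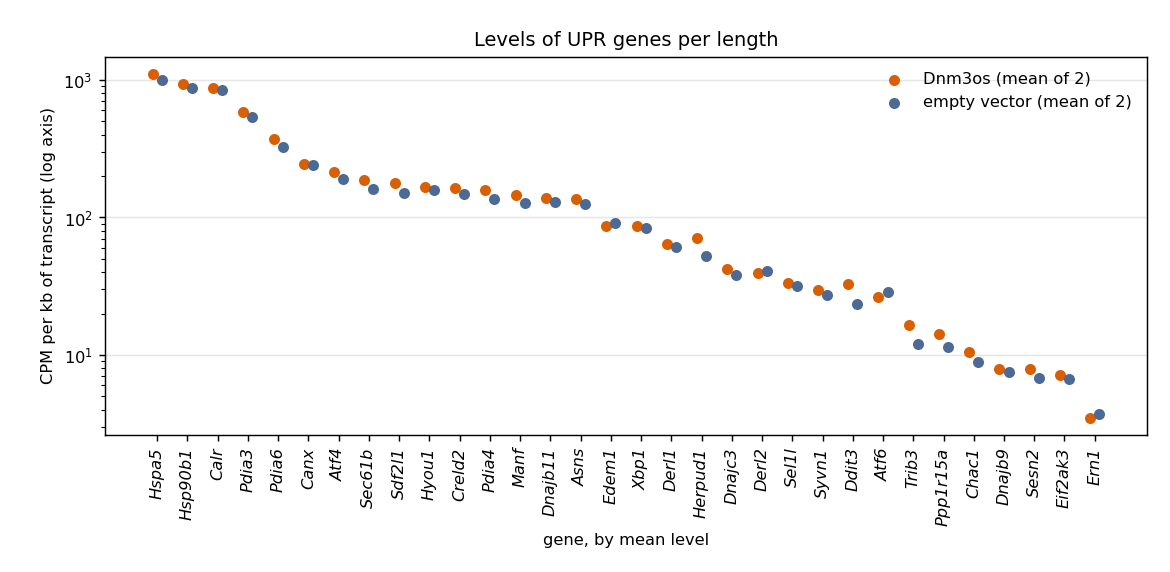
Mean level of each gene in CPM per kb of transcript (y axis, log scale) in Dnm3os cells (orange) and empty vector cells (blue), ordered by level (x axis). Hspa5 is highest, at 1099 CPM per kb in Dnm3os cells and 992 in empty vector cells, and Ern1 lowest, at 3.51 CPM per kb in Dnm3os cells and 3.74 in empty vector cells.

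Other genes of the same pathway and of other compartments give the setting. Of all 13136 genes tested, 6.48% were higher and 5.77% lower. By edgeR, 3050 of them had an unadjusted p under 0.05, in either direction. Of 25 other ER folding enzymes and chaperones, 5 rose (20%) and 0 fell, with a median log2 fold change of 0.02. Pdia5 (0.33 ± 0.06, SE), the disulfide isomerase and prolyl hydroxylase subunit P4hb (0.15 ± 0.03), the prolyl isomerase Ppib (0.15 ± 0.03) and Txndc11 (0.17 ± 0.04) rose. At an unadjusted p under 0.05 edgeR had 1 lower, while DESeq2 and limma-voom at their threshold called 0 lower. DESeq2 called 3 of the 25 higher. Of 25 genes of translocation, signal peptide cleavage and N-glycosylation, 9 rose (36%) and 0 fell, with a median of 0.07. They included the translocon-associated Ssr2 (0.18 ± 0.03, SE), Ssr1 (0.16 ± 0.03) and Ssr4 (0.16 ± 0.03), and Ostc of the oligosaccharyl transferase (0.18 ± 0.03). At an unadjusted p under 0.05 edgeR had 1 lower, while DESeq2 and limma-voom at their threshold called 0 lower. Without Dnm3os library 1, 3 of the 25 were called higher, and 5 by DESeq2, with isoforms summed, without Dnm3os library 2 or without empty vector library 1.

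Of 23 other ERAD genes tested, 1 rose, the selenoprotein Selenos that binds the segregase p97 (0.14 ± 0.04, SE), and 0 fell, with a median of 0.03. The share of 4.35% that rose was near that of all genes tested, 6.48%. Unadjusted, edgeR had 1 lower at p under 0.05, DESeq2 called 0 lower and limma-voom 1 lower. The call of Selenos was lost by DESeq2. Of 19 tested genes of other sensors, their processing and eIF2 phosphorylation, 0 rose and 3 fell (15.8%, against 5.77% of all genes), with a median of -0.04. The 3 were the Golgi protease Mbtps2 that cuts ATF6 (-0.11 ± 0.04, SE), the amino acid sensing eIF2 kinase Eif2ak4 (-0.18 ± 0.05) and the apoptosis gene Bax (-0.11 ± 0.03). Unadjusted, edgeR had 0 higher at p under 0.05, and DESeq2 and limma-voom at their threshold called 0 higher. In this list limma-voom called 2 lower. DESeq2 called 0 of these 3 lower, and so did the fits lacking Dnm3os library 2 or empty vector library 1.

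Of the 33 tested genes in the further list of ATF4 and CHOP targets, 10 rose and 2 fell, with a median of 0.10. These shares were 30.3% and 6.06%, against 6.48% higher and 5.77% lower among all genes tested. The serine and one-carbon enzymes Shmt2 (0.20 ± 0.03, SE) and Phgdh (0.18 ± 0.03) and the amino acid transporter chain Slc3a2 (0.19 ± 0.03) rose, and the AP-1 repressor Jdp2 fell (-0.25 ± 0.04). The other gene that fell was Gdf15 (-0.68 ± 0.22, SE; adjusted p = 0.0420 by edgeR). The count of higher genes in this list was larger leaving out empty vector library 2 than leaving out empty vector library 1. This also held over all genes tested. In other compartments the counts were these. Of 27 tested cytosolic chaperones and heat shock genes 0 rose and 3 fell (11.1%, against 5.77% of all genes), with a median of -0.03. These were Dnajb4 (-0.29 ± 0.08, SE), Bag3 (-0.17 ± 0.06) and Hspa4l (-0.18 ± 0.06), which were lost by DESeq2 and without either Dnm3os library or empty vector library 1. Unadjusted, edgeR had 0 higher at p under 0.05, and DESeq2 and limma-voom at their threshold called 0 higher. Among these cytosolic genes limma-voom called 3 lower. Of 15 mitochondrial chaperones and proteases, Hspe1 rose (0.12 ± 0.03, SE) and 0 fell, with a median of 0.03. The share of 6.67% that rose was near that of all genes tested, 6.48%. At an unadjusted p under 0.05 edgeR had 0 lower, as had DESeq2 and limma-voom at their threshold. The call of Hspe1 was lost by DESeq2 and with isoforms summed.

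**Figure D5:**
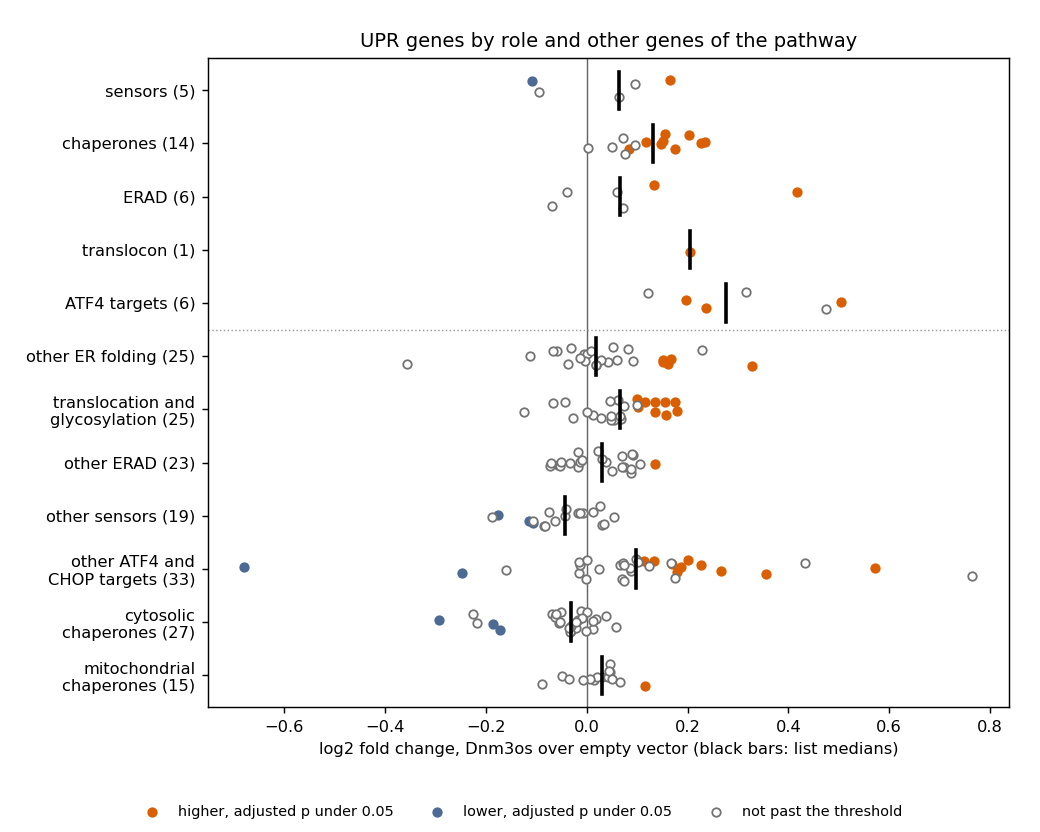
Log2 fold change of Dnm3os over empty vector cells (x axis) for each tested gene of the 5 roles (above the dotted line) and of 7 further lists (below it), with list medians as black bars and the number of genes in brackets; filled points passed the threshold (orange higher, blue lower). The medians of the chaperones (0.13) and ATF4 targets (0.28) lie right of the grey line at 0, and that of the cytosolic chaperones (-0.03) lies left of it.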

How the data were processed

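The 4 deposited files hold, per the file headers, raw and normalized counts for 35786 RefSeq transcripts. The raw column holds whole-number read counts that the authors deposited. The authors' normalized column is a scaled signal, equal to raw counts multiplied by a constant for each library, and only its constants were used. The submitters' processing notes name TopHat, Bowtie2, DESeq2 and the build mm9; neither counter nor strand setting is given in the sources used here, so reads of overlapping or antisense genes cannot be told apart. Transcripts were named from RefSeq (35499) and GENCODE (178) tables, and 109 unnamed ones, with 0.246 to 0.276% of counts, were left out. Per gene, the transcript of highest mean count was used, because isoforms share reads; 10 of the 32 genes have several transcripts.

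After filterByExpr and TMM scaling (factors 0.997 to 1.003), counts were tested across all genes with edgeR 4.0.16 in R 4.3.3 (robust quasi-likelihood, group only, Benjamini-Hochberg threshold 0.05). The SE was taken as the size of the log2 fold change divided by sqrt(F), and 95% intervals use the test's degrees of freedom. CPM use the TMM library sizes, and CPM per kb the length of the matching GENCODE vM21 transcript. The steps were tested on simulated data, with changes larger than those of most members. Recovery of differences as small as theirs was not tested. Promoter windows are RefSeq's on GRCm38.p6, another build than the counts; no coordinates were converted.

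The members and lists were chosen with earlier results of these data known, so no test over a list was made. All members are named, and of each other list up to 4 called genes with the smallest adjusted p. Gdf15 was named in addition, after its values were seen. The alternatives were other scalings, DESeq2 1.42.0, limma-voom (limma 3.58.1), other filters, summed isoforms, a replicate block and each library left out in turn. Where a library was left out, the 1 remaining in its group was taken to vary as much as the other group.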

Additional observations from a re-analysis of the deposited data

How the results depend on the processing

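Over 14 alternatives for each of 32 members, 399 of the values kept direction and side of the threshold, 33 lost a call, 12 gained one and 4 changed sign. The sign changes were all of Canx, never called: -0.0008 with upper-quartile factors, -0.0011 with no filter, and -0.0201 to 0.0223 with a library left out. DESeq2 called 398 genes higher (edgeR 851) and 359 lower (758), and leaving out 1 library gave 434 to 802 higher and 372 to 784 lower. Members higher numbered 7 to 18 with a library left out (16 with all), and members lower 0 to 2 (1 with all). Sensors numbered 0 to 1 higher and 0 to 1 lower with a library left out, chaperones 5 to 9 higher, ERAD genes 1 to 2 higher and 0 to 1 lower, the translocon gene 0 to 1 higher and ATF4 targets 1 to 6 higher. DESeq2 gave 1 ERAD gene and 1 ATF4 target higher, summed isoforms 1 of each, and no filter 5 ATF4 targets. By DESeq2, with summed isoforms and with the replicate block, 0 members and 0 sensors were lower. The replicate block gave 825 genes higher and 751 lower, and 17 members higher; with it Atf6 and Sesn2 lost their calls and Trib3 and Asns gained one. No label ties same-numbered libraries. Their deviations correlated at -0.063 over 13136 genes, and at 0.063 with the numbers crossed. With 2 libraries per group these are the same value with opposite sign, so whether same-numbered libraries are paired cannot be told. The causes were not tested. Counting error is widest for the members of lowest count, such as Chac1 and Dnajb9.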

Other observations

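The exact ERSE or ERSE-II was also found in windows of 39 genes outside the 32, of which 20 were tested. Of these 6 were higher and 1 lower in Dnm3os cells, with a median log2 fold change of 0.08. Of all genes tested, 6.48% were higher and 5.77% lower. The 6 include the near-identical copies Xlr3a, Xlr3b and Xlr3c, so they are not all separate observations. The 7 called genes were named after their values were seen. Ero1b, the oxidase that recharges disulfide isomerases, had 50.1 and 49.2 CPM in the Dnm3os libraries, against 44.2 and 44.6 CPM in the empty vector libraries (adjusted p = 0.0289 by edgeR). Krtcap2, a subunit of the oligosaccharyl transferase, had 161 and 159 CPM in the Dnm3os libraries, against 143 and 150 CPM in the empty vector libraries (adjusted p = 0.0118 by edgeR). The calcium-binding Nucb1 had 143 and 145 CPM in the Dnm3os libraries, against 129 and 128 CPM in the empty vector libraries (adjusted p = 0.000692 by edgeR).

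The other 3 higher genes were Xlr3a, Xlr3b and Xlr3c, near-identical copies whose reads cannot be assigned to 1 copy with certainty. Xlr3c had 4.02 and 3.13 CPM in the Dnm3os libraries, against 0.126 and 0.0568 CPM in the empty vector libraries (adjusted p = 1.12e-10 by edgeR). Xlr3b had 2.59 and 2.40 CPM in the Dnm3os libraries, against 0.101 and 0.0568 CPM in the empty vector libraries, and Xlr3a had 1.67 and 1.17 CPM in the Dnm3os libraries, against 0.0503 and 0 CPM in the empty vector libraries. Tdrd9 was lower, with 0.0682 and 0.410 CPM in the Dnm3os libraries, against 0.780 and 0.823 CPM in the empty vector libraries (adjusted p = 0.0230 by edgeR).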
